A study of Homo sapiens with 2 samples.

Results

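Histone lysine demethylases remove methyl groups from the tails of histones. The 5 described here were *KDM1A*, *KDM4A*, *KDM5B*, *KDM6B* and *KDM7A*, out of 14812 genes named on the arrays. They were picked by name with earlier results of these data in view, and what was seen in those results was their difference between the arrays, so that difference is given as a description without a test. Each had exactly 1 probe set, the array's unit of measurement for a transcript. HT29 cells, a human colon cancer line, had been transfected with a control siRNA (siControl) or with an siRNA targeting *REG4* (siREG4), which encodes a secreted lectin-like protein, and RNA of each was run on 1 Affymetrix array. One label of the siREG4 array gives GATA6 as the target, whereas its title gives REG4, and the title was followed. The labels do not say which of the REG4 siRNAs, or which control siRNA, was used, and the cells are those of 1 line.

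Methylation of lysines 4 and 36 of histone H3 (H3K4, H3K36) is found at active genes, that of lysines 9 and 27 (H3K9, H3K27) at silent ones. Demethylases come in a pair of classes. *KDM1A* and *KDM1B* are flavin-dependent amine oxidases and act on mono- and dimethylated lysine, whereas the enzymes with a Jumonji C (JmjC) domain use iron, oxygen and 2-oxoglutarate and can also remove the trimethyl state. In intestinal epithelium and its tumours these enzymes have been studied as regulators of stem cell and lineage genes.

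There were 2 arrays, 1 per group, and so no spread between replicates. The deposited values were on a log scale, with the base taken as 2, and had been centred per probe set: the arrays summed to 0 within 2e-06 in all 44629 probe sets. They therefore hold a difference and no signal level, and neither the abundance of a demethylase nor the epithelial identity of the cells could be read from them. In bulk RNA, a change in the number of cells that express a gene and a change in RNA per cell cannot be told apart. As a rough scale of noise, the 84 keratin-associated protein (*KRTAP*) genes, a hair shaft family presumed not to be expressed in HT29, had differences (siREG4 minus siControl) with an SD of 0.09 across genes and a range from -0.22 to 0.30. Of these genes 45 lay above 0, 37 below and the rest at exactly 0. Whether a floor on low signals narrowed this spread was not tested. The difference of *GATA6* was 0.07, and without a probe set for *REG4* among those named the knockdown itself was not analysed here.

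All 5 demethylases had the higher value on the siREG4 array, and 4 of them were past 1.4-fold. The methods of the study used a 1.4-fold threshold for decreases only, and it was applied here in both directions. For comparison, 1.68% of the 11911 protein-coding genes were higher past 1.4-fold and 2.04% were lower. Among all 14812 named genes the shares were 1.51% and 1.67%. Because the choice of the 5 genes used these differences, nothing is read from their count against that background.

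**Figure D1:**
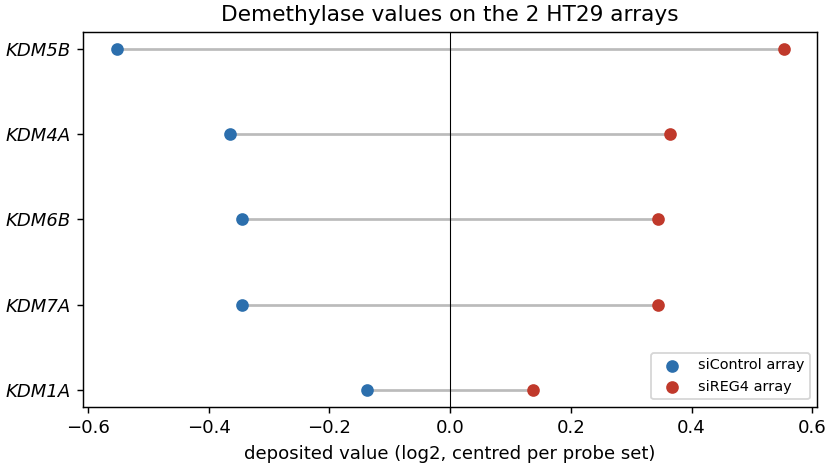
Deposited log2 values, centred per probe set, of the 5 demethylases on the siControl array (blue) and on the siREG4 array (red), 1 array each with no error bar. The siREG4 point lies to the right in all 5 genes, and the gap is widest for *KDM5B* (-0.55 and 0.55).

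As a description, the sequences before the transcription starts of the 5 genes were set side by side. The RefSeq promoter table (GRCh38.p14) held windows for all 5 genes, with 2 starts for *KDM6B* and 1 for each other gene. The 250 bases upstream of the start are printed for the gene with the largest difference, for the window richest in CG dinucleotides, and for both starts of *KDM6B*, which differ from each other in base composition. Each is written 5′ to 3′ on the strand of the gene, and capitals mark every CG.
KDM5B (chr1:202808422-202808671, minus strand): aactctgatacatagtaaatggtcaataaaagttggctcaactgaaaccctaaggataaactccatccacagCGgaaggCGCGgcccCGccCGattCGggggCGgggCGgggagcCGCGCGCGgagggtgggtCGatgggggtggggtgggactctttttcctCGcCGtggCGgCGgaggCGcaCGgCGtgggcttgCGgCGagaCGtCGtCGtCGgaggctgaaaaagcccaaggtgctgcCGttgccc
KDM7A (chr7:140176984-140177233, minus strand): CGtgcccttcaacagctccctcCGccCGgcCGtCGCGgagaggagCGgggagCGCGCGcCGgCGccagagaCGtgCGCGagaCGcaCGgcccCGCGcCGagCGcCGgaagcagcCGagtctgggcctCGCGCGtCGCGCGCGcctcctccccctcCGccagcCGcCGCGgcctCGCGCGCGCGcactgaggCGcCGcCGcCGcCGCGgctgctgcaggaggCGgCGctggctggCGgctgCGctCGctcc
KDM6B, upstream start (chr17:7833967-7834216, plus strand): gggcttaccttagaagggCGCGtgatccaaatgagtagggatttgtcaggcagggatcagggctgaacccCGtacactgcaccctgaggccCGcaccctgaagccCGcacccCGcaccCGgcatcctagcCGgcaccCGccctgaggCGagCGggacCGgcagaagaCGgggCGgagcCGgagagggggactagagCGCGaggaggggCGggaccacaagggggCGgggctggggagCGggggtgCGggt
KDM6B, downstream start (chr17:7839667-7839916, plus strand): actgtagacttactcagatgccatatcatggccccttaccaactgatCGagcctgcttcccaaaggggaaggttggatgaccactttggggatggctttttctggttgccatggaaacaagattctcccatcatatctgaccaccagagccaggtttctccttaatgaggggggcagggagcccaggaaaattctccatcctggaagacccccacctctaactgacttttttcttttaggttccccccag

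The *KDM7A* window held 50 CG dinucleotides and was 81.6% G or C, and 99.9% of the 22199 windows of protein-coding genes held as many or fewer. *KDM5B* had 27 CG dinucleotides, *KDM1A* 23, the upstream start of *KDM6B* 21 and *KDM4A* 17, against a median of 16 over all windows. The downstream start of *KDM6B* held 1. Thus the windows of the 5 genes were not alike, and ranged from CG-poor to nearly the richest measured. A probe set does not tell which start a transcript used.

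Motifs were searched as plain letters on both strands of these 250 bases. GGGCGGGG, the GC box that SP1 family factors bind, was found upstream of *KDM1A*, *KDM5B* and the upstream start of *KDM6B*, that is, in 3 of the 6 windows and in 28.6% of all windows. GCGTG, a form of the core of the hypoxia response element, was found in 4 of the 6 windows and in 38.3% of all. The form ACGTG, which the printed *KDM7A* window holds, was not counted. CCAAT, bound by NF-Y, was present only upstream of *KDM4A* (1 of 6 windows and 32.7% of all). No window of the 5 genes held TTTGGCGC, an E2F site (0 of 6, 0.685% of all), or TGACTCA, an AP-1 site (0 of 6, 3.45% of all). AGATAA, a form of the site of GATA factors, was also absent (0 of 6, 7.09% of all). The other forms of the GATA motif given in the study (A/TGATAA/G) were not searched. These matches describe the letters of short windows and are not binding sites shown to be used.

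*KDM5B*, also known as JARID1B or PLU-1, removes di- and trimethylation from H3K4 and was first known from breast cancer. Its value was -0.55 on the siControl array and 0.55 on the siREG4 array. The difference of 1.11 on the log2 scale corresponds to 2.15-fold. It was 12.4 times the SD of the *KRTAP* genes, a spread across presumably silent genes that does not measure variation between repeated arrays. *KDM5B* ranked 17th highest of all protein-coding genes, of which 0.201% were higher past 2-fold. It was the only one of the 5 genes past 2-fold. The other enzymes of the KDM5 subfamily differed little: *KDM5A*, a binding partner of the retinoblastoma protein, had a difference of 0.12 and the X-linked *KDM5C* one of 0.09. *KDM5B* thus lay 0.98 above the nearer of them, on the log2 scale of differences.

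*KDM1A*, or LSD1, takes mono- and dimethylation off H3K4 as a subunit of the CoREST repressor complex. Its values were -0.14 on the siControl array and 0.14 on the siREG4 array, a difference of 0.27, or 1.21-fold. This was the smallest difference of the 5 genes and did not reach 1.4-fold; it lay inside the range of the *KRTAP* genes, and ranked 732nd from the highest among protein-coding genes. *KDM1B*, the other flavin-dependent demethylase, had a difference of 0.06. Among the 5 measured demethylases of H3K4, all had a difference above 0, with a median of 0.12. Only *KDM5B*, picked with its difference known, was past 1.4-fold (20%, against 1.68% of all protein-coding genes).

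*KDM4A*, also called JMJD2A, acts on trimethylated H3K9 and H3K36. Its values were -0.36 on the siControl array and 0.36 on the siREG4 array. The difference of 0.73 corresponds to 1.66-fold and was the 64th highest among protein-coding genes. The other KDM4 genes had differences close to 0. *KDM4B*, known as a target of hypoxia-inducible factor, was at 0.08, *KDM4C* at -0.09, and *KDM4D* and *KDM4E*, which act on H3K9 but not on H3K36, were at -0.08 and 0.04. Of the 5 measured genes of the subfamily, only *KDM4A* lay outside the range of the *KRTAP* genes.

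*KDM6B*, or JMJD3, removes di- and trimethylation from H3K27, the mark set by Polycomb repressive complex 2, and is known as a gene that inflammatory signals induce in macrophages. Its value was -0.35 on the siControl array and 0.35 on the siREG4 array, a difference of 0.69 (1.61-fold). *KDM6A*, or UTX, which removes the same mark and also belongs to an H3K4 methyltransferase complex, had a difference of -0.08. The gap between these paralogs was 0.77 on the log2 scale of differences.

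*KDM7A*, formerly JHDM1D, acts on dimethylated H3K9 and H3K27. With -0.34 on the siControl array and 0.34 on the siREG4 array, its difference was 0.69 (1.61-fold). It ranked 82nd from the highest among protein-coding genes and *KDM6B* 80th, so that these enzymes of H3K27 differed by nearly the same amount. The relatives of *KDM7A* with the same domain layout, *PHF2* and *PHF8*, both listed for H3K9, were at 0.18 and -0.16.

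**Figure D2:**
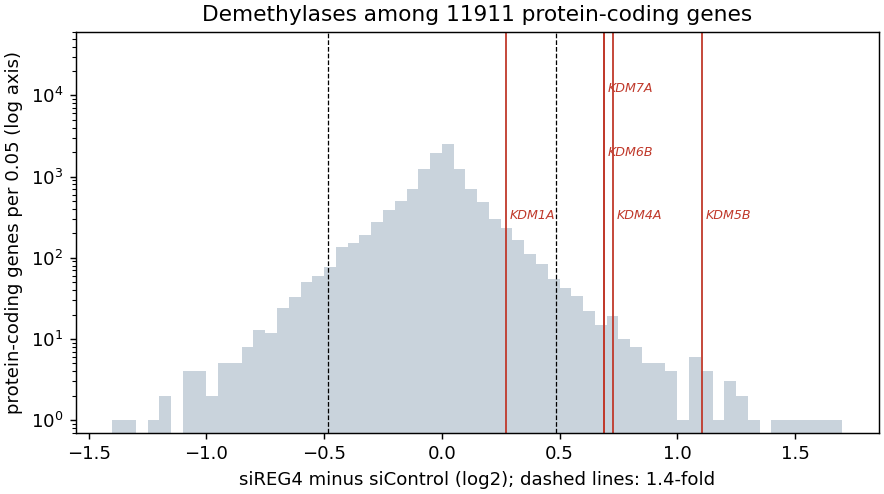
Number of protein-coding genes (log axis) in each interval of 0.05 of the log2 difference, siREG4 minus siControl, with red lines at the 5 demethylases and dashed lines at 1.4-fold. The line of *KDM1A* (0.27) lies inside the dashed lines, those of *KDM7A* and *KDM6B* (each 0.69) and *KDM4A* (0.73) lie beyond, and *KDM5B* (1.11) lies among the outermost genes.

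All listed demethylases were read next, a set that was not trimmed by value but holds the 5 picked genes. Of 24 genes listed, 23 were measured, each with 1 probe set. Their median difference was 0.09, against 0.0 over all protein-coding genes, 18 lay above 0 and 5 below. Of the 23, 5 were higher past 1.4-fold (21.7%) and 0 were lower, against 1.68% and 2.04% of all protein-coding genes, but 4 of these 5 are among the genes picked with their differences known, so the share partly restates that choice. In each of the subfamilies KDM1, KDM4, KDM5, KDM6 and KDM7, the gene described had the highest difference, which follows from how the 5 were picked.

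Without the 5 genes, the remaining 18 had a median of 0.07, and 10 of them lay within 0.1 of 0. Of these 18, 13 lay above 0 and 5 below, where the median over all protein-coding genes was 0.0. Past 1.4-fold, 1 was higher (5.56%) and 0 lower, against 1.68% and 2.04% of all protein-coding genes. The higher gene was *JMJD1C*, a relative of the H3K9 demethylase KDM3A. It had -0.26 on the siControl array, 0.26 on the siREG4 array and a difference of 0.53 (1.44-fold). *KDM2A*, an H3K36 demethylase that binds unmethylated CpG islands, fell short of the threshold at 0.46 (1.38-fold), and *KDM2B*, which has the same type of DNA-binding domain, was at 0.21. *KDM3A* and *KDM3B* were at 0.16 and 0.09, *KDM8* at 0.04 and *HR*, the hairless corepressor, at 0.00. At the other end, *RIOX1*, a nucleolar JmjC protein listed for H3K36, had 0.18 on the siControl array and -0.18 on the siREG4 array, a difference of -0.35. It lay outside the range of the *KRTAP* genes but did not pass 1.4-fold.

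**Figure D3:**
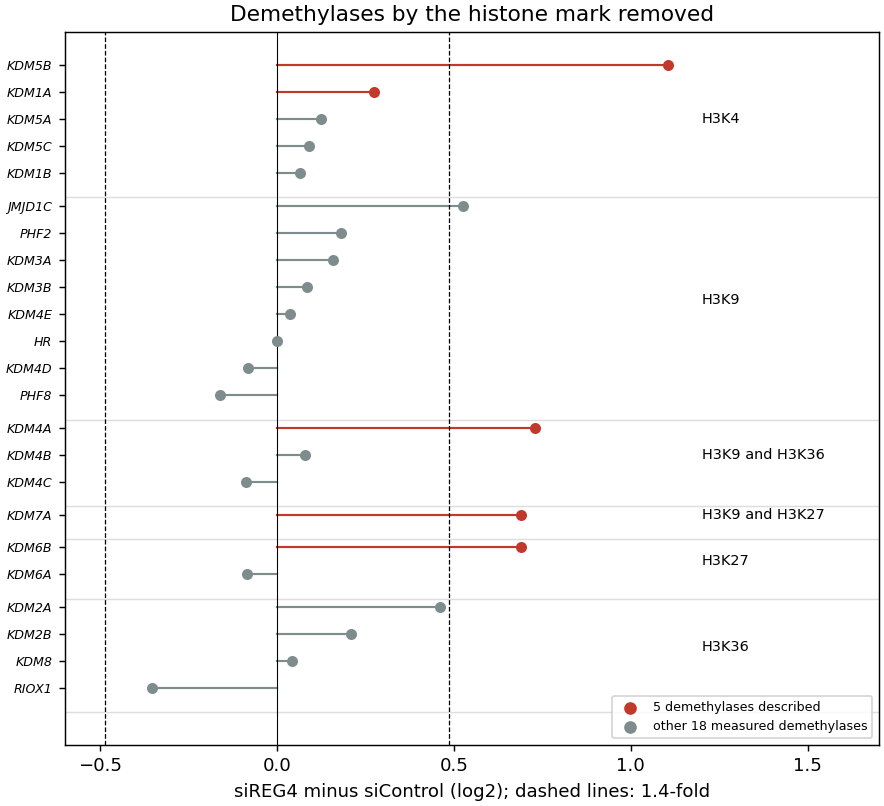
Log2 difference, siREG4 minus siControl, of the 23 measured demethylases, grouped by the mark that each removes. The 5 described are in red, the other 18 in grey, and dashed lines mark 1.4-fold. Past the upper line lie *KDM5B*, *KDM4A*, *KDM7A*, *KDM6B* and, in grey, *JMJD1C*, and no gene lies past the lower line.

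By mark, the median difference was 0.12 over the 5 measured demethylases of H3K4, 0.08 over 12 of H3K9, 0.69 over 3 of H3K27 and 0.08 over 7 of H3K36, with enzymes of several marks counted under each. Leaving out the 5 described, the medians were 0.09 (3 genes), 0.06 (10 genes), -0.08 (*KDM6A* alone) and 0.06 (6 genes). The median of the H3K27 enzymes therefore rested on *KDM6B* and *KDM7A*.

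The methyltransferases that write these marks were compared next. Together with the Polycomb subunits, 31 of 41 listed genes were measured, with a median of 0.01. Past 1.4-fold, 1 was higher and 1 lower (each 3.23%), against 1.68% and 2.04% of all protein-coding genes. No measured methyltransferase of H3K4 (9 genes), H3K9 (6), H3K36 (4) or H4K20 (3) passed the threshold. For H3K4, opposite to *KDM5B* and *KDM1A*, the lowest were *SETD7* (-0.21) and *SETD1A* (-0.16), and the highest *KMT2C* (0.18) and *KMT2D* (0.21), which encode the enzymes that methylate enhancers. For H3K9, *SUV39H1*, a heterochromatin methyltransferase, and *MECOM* were each at -0.26, and *PRDM16* (0.09) and *EHMT1* (0.14) were the highest, the median being -0.08. For H3K36, *NSD1* was at -0.15, *SETD2*, which writes the trimethyl state, at -0.06, *NSD2* at 0.01 and *NSD3* at 0.08. The H4K20 enzymes *KMT5A*, *KMT5B* and *KMT5C* were at 0.10, 0.14 and 0.02.

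Of Polycomb repressive complex 2, whose mark *KDM6B* and *KDM7A* remove, 9 of 11 listed genes were measured and their median was -0.03. The catalytic subunit *EZH2* had a difference of -0.14, its paralog *EZH1* one of 0.03 and the core subunit *SUZ12* one of -0.14. *RBBP7*, a histone-binding subunit that is shared with deacetylase complexes, was lower past 1.4-fold (-0.79, 1.73-fold), followed by the accessory subunit *PHF19* (-0.26). *MTF2*, another accessory subunit, which guides the complex to CpG islands, was higher past 1.4-fold (0.52, 1.43-fold).

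The 12 listed subunits of H3K4 methyltransferase complexes, other than the enzymes, include some that only part of these complexes hold. Over the 11 measured genes the median was -0.26, with 8 below 0. Past 1.4-fold, 1 was lower (9.09%) and 0 higher, against 2.04% and 1.68% of all protein-coding genes. *DPY30*, a core subunit that all of these complexes need for full activity, had 0.31 on the siControl array and -0.31 on the siREG4 array, a difference of -0.62, or 1.54-fold lower. Next were *PAGR1* (-0.39) and *WDR82* (-0.34), and the highest were *BOD1L1* (0.08) and *NCOA6* (0.17). The core subunits *WDR5* and *RBBP5* were at -0.26 and -0.13.

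Partners of *KDM1A* in CoREST and related complexes lay close to 0. Of 19 listed genes 14 were measured, the median was 0.02, and 0 passed 1.4-fold in either direction. The scaffolds *RCOR1*, *RCOR2* and *RCOR3* had differences of -0.03, -0.10 and -0.05, and the deacetylases *HDAC1* and *HDAC2* of -0.07 and 0.11. *HMG20B* (-0.12) was the lowest, and *GSE1* (0.15) and *PHF21A* (0.18), which binds unmethylated H3K4, were the highest. Proteins that read methylated lysine had a median of 0.00 over 14 measured genes (25 listed), with 0 past 1.4-fold. The lowest were *CBX5* (-0.36), which encodes the heterochromatin protein HP1 alpha, and *UHRF1* (-0.31), and the highest *MPHOSPH8* (0.17) and *SPIN1* (0.32).

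**Figure D4:**
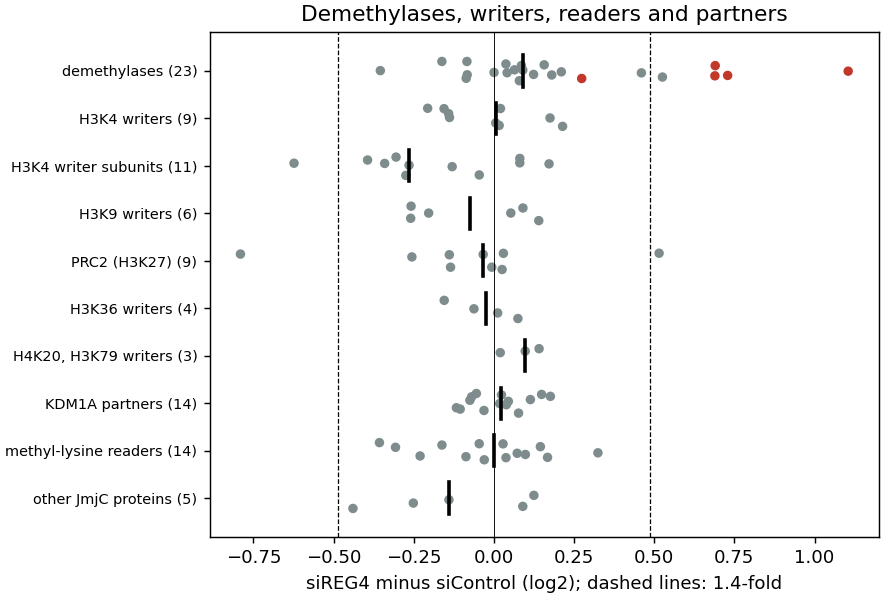
Log2 difference, siREG4 minus siControl, of each measured gene in 10 lists around histone methylation, with the number of genes in brackets. Red points are the 5 demethylases described, black bars are list medians, dashed lines mark 1.4-fold and the vertical spread within a list carries no value. The medians run from -0.26 for the listed subunits of H3K4 methyltransferase complexes to 0.10 for the writers of H4K20.

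Finally, the genes next to each demethylase were read, to see whether whole stretches of a chromosome differed. The 3 nearest measured protein-coding genes on either side of each were taken from the order in RefSeq (GRCh38.p14), 30 genes in all, some with unmeasured genes in between. Their median difference was -0.01, 17 lay within 0.1 of 0, and 1 was higher past 1.4-fold (3.33%, against 1.68% of all protein-coding genes). Next to *KDM5B* on chromosome 1, *SYT2* was at -0.06 and *RABIF* at -0.14, and the lowest of all 30 was *UBE2T* (-0.48), a ubiquitin-conjugating enzyme of the Fanconi anaemia pathway. Next to *KDM4A*, *MED8* was at 0.13 and *ARTN* at 0.01, and next to *KDM6B* on chromosome 17, *EFNB3* was at 0.00 and *TMEM88* at -0.24.

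The exception was *KDM7A* on chromosome 7. The measured genes on one side of it were *TBXAS1* (0.45), which encodes thromboxane synthase, and then *HIPK2* (1.21), a nuclear kinase and the gene past 1.4-fold, followed by *FMC1-LUC7L2* at -0.19, whereas *MKRN1* on the other side was at 0.03. *KDM1A* lies beside *LUZP1* (0.40) on chromosome 1, and their annotated ends overlap on opposite strands. Whether probes of either gene lie in that overlap was not tested. The non-coding genes at these loci were near 0, with 0.03 for *KDM4A-AS1*, which is antisense to *KDM4A*, and 0.05 for *KDM7A-DT*, which is transcribed away from *KDM7A*.

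**Figure D5:**
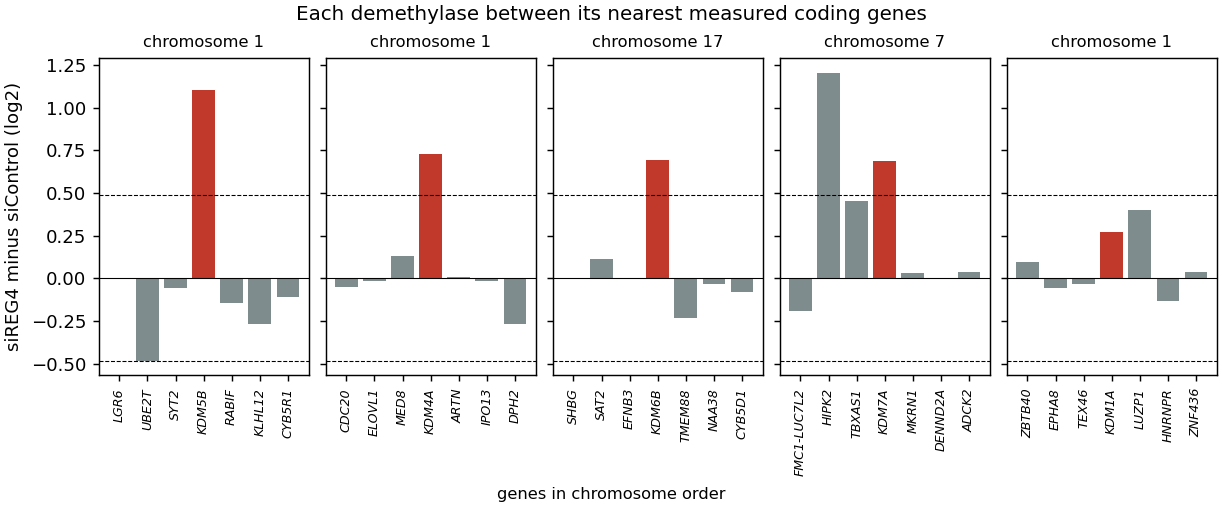
Log2 difference, siREG4 minus siControl, of each of the 5 demethylases (red) and the 3 nearest measured protein-coding genes on either side (grey), in chromosome order, 1 panel per demethylase. Dashed lines mark 1.4-fold. A grey bar passes the line only beside *KDM7A* (*HIPK2*, 1.21).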

How the data were processed

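Per the methods of the study, total RNA of HT29 cells was prepared with the GeneChip WT PLUS reagents, hybridized to Affymetrix Human Gene ST arrays and evaluated with GeneSpring. The authors deposited 1 table of log2 values for 2 arrays, centred per probe set. For background correction, summarization, normalization between arrays, filters and the log base, details were not given in the sources used here. Probe sets were named from the platform annotation: 15835 had 1 symbol, 0 had several and 28794 were unnamed here. Differences were taken as siREG4 minus siControl and averaged over the probe sets of a gene, and counted past 1.4-fold. No test was made, since each group had 1 array, and that number sets the precision.

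The 5 demethylases and the gene lists were chosen with earlier results of these data known, and the *KRTAP* gauge after the values were seen. Genes named were the 5, every other measured demethylase, the 2 lowest and 2 highest of each list and genes past 1.4-fold; others (core subunits, scaffolds and neighbours on the chromosome) were chosen after their values were seen. Y-linked genes were left out. Alternatives were other centring, quantile normalization, other choices of probe set, 1.2-fold and 2-fold thresholds, all probe sets, protein-coding genes, means, and lists without the 5. The script was tested on simulated data. Promoter sequences, gene types, synonyms and gene order came from RefSeq (GRCh38.p14). Python 3.11.15, numpy 2.4.6, pandas 2.3.3 and matplotlib 3.10.9 were used.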

Additional observations from a re-analysis of the deposited data

How the results depend on the processing

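The direction of all 5 demethylases held under every alternative run. Centring each array on its median and another choice of probe set could not move them, since both medians were 0 and each gene had 1 probe set. Quantile normalization moved them by at most 0.10, with *KDM5B* at 1.01 in place of 1.11. At 2-fold, 1 of the 5 remained past the threshold, and over all genes 26 higher and 13 lower. Over all probe sets, named or not, 466 were higher and 491 lower past 1.4-fold, in place of 224 and 248 genes. By the mean in place of the median, the differences were 0.33 for H3K4 demethylases, 0.18 for H3K9, 0.43 for H3K27 and 0.21 for all 23. The H3K27 median reversed to -0.084 without the 5 genes, which leaves *KDM6A* alone. Of 41 alternatives for list medians, the other 36 moved by less than the SD of the *KRTAP* genes. A filter on low signal was not run, because centred values keep no level. No paired analysis was possible because each group has 1 array.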

Other observations

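The JmjC demethylases depend on 2-oxoglutarate and oxygen, and genes of that setting were also read. Of 21 listed genes that make or use 2-oxoglutarate or clear its hydroxylated form, 9 were measured, with a median of 0.06. Past 1.4-fold, 1 was higher (11.1%) and 0 lower, against 1.68% and 2.04% of all protein-coding genes. *OGDH*, a subunit of the 2-oxoglutarate dehydrogenase of the citric acid cycle, was higher past 1.4-fold on the siREG4 array (0.53, 1.44-fold), followed by *GLUD1* (0.18), and *IDH3B* (-0.24) and *IDH3A* (-0.04), subunits of a mitochondrial isocitrate dehydrogenase, were the lowest. Other dioxygenases with the same co-substrate had a median of 0.00 over 8 measured genes, with 0 past 1.4-fold, from *EGLN1* (-0.22), a prolyl hydroxylase that senses oxygen, and *OGFOD3* (-0.15) to *EGLN3* (0.05) and *TET2* (0.09). JmjC proteins outside the histone lysine demethylases had a median of -0.14 over 5 measured genes. *JMJD8* (-0.44) and *RIOX2* (-0.25) were the lowest, and *TYW5* (0.09) and *JMJD6* (0.12) the highest.

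Hypoxia-inducible factors and their targets, which include the demethylases *KDM3A*, *KDM4B* and *KDM4C*, had a median of 0.08 over 17 measured genes. Past 1.4-fold, 2 were higher (11.8%) and 0 lower, against 1.68% and 2.04% of all protein-coding genes. The 2 higher genes were *NDRG1* (0.81, 1.76-fold) and *BNIP3L* (0.61, 1.52-fold), a mitophagy receptor. *EGLN1* (-0.22) and the glycolytic *PGK1* (-0.12) were the lowest. Of the 17 genes, 12 lay above 0 and 9 lay within 0.1 of 0. Next below the threshold were the growth factor *VEGFA* (0.45, 1.36-fold), *ARNT* (0.26), the partner subunit of the factors, and *KDM3A* (0.16), named after their values were seen.

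Of 19 listed histone H3 genes, 1 was measured, the centromeric *CENPA* (-0.42). Markers of colon epithelium ran from *CDX2* (-0.26) and *KRT8* (-0.08) to *KRT19* (0.24) and *KRT20* (0.54), with a median of -0.03 over 8 genes. *KRT20* alone was past 1.4-fold (12.5% higher and 0 lower, against 1.68% and 2.04% of all protein-coding genes). Of 7 measured markers of other cell types, *CD68* (-0.75), which encodes a lysosomal membrane protein, was lower past 1.4-fold (14.3%, against 2.04% of all protein-coding genes). The others lay between -0.05 for *CLDN5* and 0.03 for *LUM* and *ALB*.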
